A study of Caenorhabditis elegans with 4 samples.

Results

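The ALG genes of Caenorhabditis elegans encode Argonaute proteins, which hold small RNAs and find target RNAs by base pairing. The 5 genes alg-1, alg-2, alg-3, alg-4 and alg-5 were taken by name from the table of the series, which lists 46934 genes, and all 5 were found. They were compared in whole synchronized adults of 2 groups, each with 2 libraries made from total RNA depleted of ribosomal RNA. The eggd-1 group is labelled as a null mutant of eggd-1, and the control group carries the genotype label pgl-1::RFP, a germ granule protein joined to a red fluorescent protein. The label of the eggd-1 group names no tag, so an effect of the tag cannot be told apart from that of eggd-1 by the labels alone. The study describes its eggd-1 mutants as lacking the whole coding region of the gene. Each library pooled about 50000 worms grown at 20 degrees, so variation between single animals was not measured. The study calls the 2 libraries of a group biological replicates, and their titles call them sequencing replicates. Most p-values below come from DESeq2, a model of counts. It takes a single spread per gene for both groups, estimated in part from other genes.

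In worms, ALG-1 and ALG-2 are the main Argonautes of the microRNA pathway, in which a short RNA lowers the output of partly matching messenger RNAs. ALG-5 also binds microRNAs and is known from the germ line. ALG-3 and ALG-4 are close paralogues that are known from the germ line during spermatogenesis, where they bind 26G-RNAs (small RNAs named for their length and first base) against transcripts of developing sperm. A hermaphrodite makes sperm as a larva and then switches to oocytes, so RNA made for spermatogenesis is normally scarce in adults. EGGD-1 is a LOTUS domain protein that helps to place germ granules, where many Argonautes reside, at the envelope of germ cell nuclei.

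The libraries held between 17603513 and 18707358 counts in eggd-1 and between 20223368 and 30812591 counts in the control, and 16773 rows of the table received an adjusted p-value. The eggd-1 gene itself, listed as mip-1, had 6 and 3 counts in the eggd-1 libraries, against 2074 and 3177 in the control libraries. No pair of replicates agreed within sampling noise, with a chi-square statistic over its degrees of freedom of 5.27 for the eggd-1 pair and 29.9 for the control pair. Normalized counts below are counts divided by the size factor of DESeq2, which corrects for depth, and each mean is given with its SD over 2 libraries.

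The 5 genes lie on 5 chromosomes, so none of them neighbours another. In the annotation of build WBcel235, alg-3 (WBGene00011910, T22B3.2) spans chromosome IV, 11704246 to 11708264, on the plus strand. Its paralogue alg-4 (WBGene00006449, ZK757.3) spans chromosome III, 9887209 to 9891424, on the minus strand. The microRNA Argonaute genes are alg-1 (WBGene00000105, F48F7.1; chromosome X, 13949110 to 13956261, plus strand) and alg-2 (WBGene00000106, T07D3.7; chromosome II, 873212 to 879885, plus strand). The fifth gene, alg-5 (WBGene00011945, T23D8.7), spans chromosome I, 9989802 to 9993976, on the plus strand. All 5 are protein-coding, and their longest annotated proteins have 1035 residues for ALG-3, 1040 for ALG-4, 1023 for ALG-1, 910 for ALG-2 and 905 for ALG-5.

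The gene models of alg-3 and alg-4 were the most alike of the clade. In the transcript with the longest coding sequence, each had 12 exons, and the 6 consecutive exons from number 6 onwards had the same lengths in both genes (217, 508, 263, 125, 498 and 125 bp, together 1736 bp). Among the other 9 pairs of members, no more than 1 exon in a row had the same length. Despite this likeness, none of the 5 genes had a fractional count in any library. A read with several alignments was split by the authors into fractions, so fractional values mark shared reads, and they occurred in 12.8% of the rows with a count. No divided read is therefore seen in the counts of alg-3 and alg-4.

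**Figure D1:**
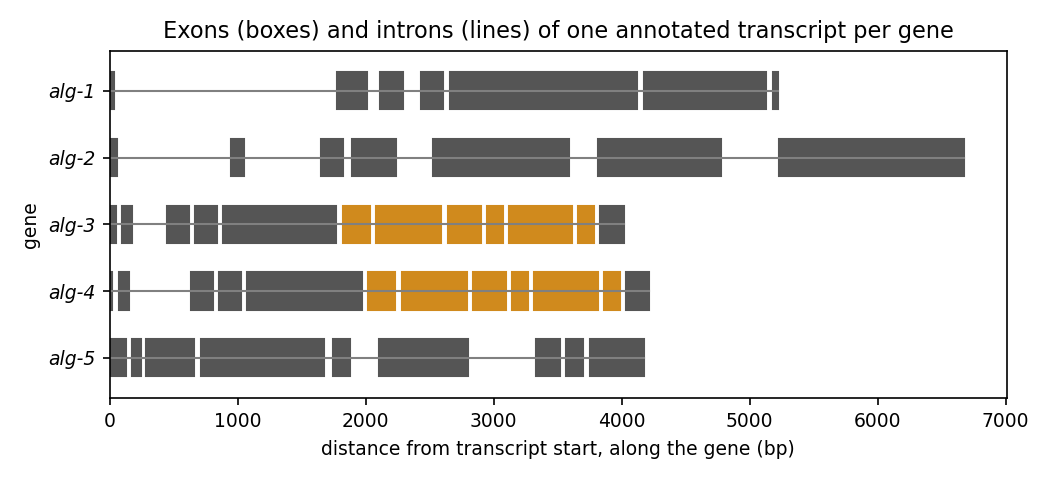
Exons (boxes) and introns (lines) of the annotated transcript with the longest coding sequence of each gene, against distance from the transcript start in bp. The orange boxes in alg-3 and alg-4 are the 6 consecutive exons of equal length in the 2 genes, and no other pair of members shares a run of more than 1.

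Both spermatogenic Argonaute genes were about 6-fold higher in eggd-1 mutants, alg-1 was moderately higher, and alg-2 and alg-5 did not pass the test. By DESeq2, 3 of the 5 genes were called at an adjusted p-value under 0.05, where 39.1% of all rows tested were called in either direction. All 3 were higher, as were 18.6% of all rows. At 4-fold or more, 2 of the 5 were higher, against 5.67% of all rows, and none was lower by as much, against 0.763%. No member was lower, where 20.4% of all rows were, with 1 member lower at an unadjusted p-value under 0.05 and 0 by edgeR. In normalized counts both eggd-1 libraries lay above both control libraries for 3 members, as for 38.5% of all rows, and below them for 2, as for 38.9%. All 5 members passed the filter on low counts.

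The count of alg-3 was 448 and 379 in the eggd-1 libraries (exact 95% Poisson intervals 407 to 491 and 342 to 419), against 71 and 125 in the control libraries (55.5 to 89.6 and 104 to 149). These intervals cover counting error only. After correction for depth, alg-3 had 495 and 464 normalized counts in eggd-1, against 71.9 and 89.3 in the control. Both eggd-1 libraries lay far above both control libraries, and the lowest ratio between any eggd-1 and any control library was 5.19. The mean was 479 ± 22.2 in eggd-1 and 80.6 ± 12.3 in the control (SD, n = 2), a 5.91-fold difference. On the log2 scale this was 2.56 with an SE of 0.23 (adjusted p = 1.74e-27 by DESeq2).

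The second spermatogenic paralogue behaved in nearly the same way. The count of alg-4 was 606 and 478 in the eggd-1 libraries, against 85 and 171 in the control libraries. In normalized counts these were 669 and 585 in eggd-1, against 86.0 and 122 in the control, again with no overlap and a lowest ratio of 4.78. The mean of alg-4 was 627 ± 60.0 in eggd-1 and 104 ± 25.6 in the control (SD, n = 2), a 5.97-fold difference, or 2.58 on the log2 scale with an SE of 0.22 (adjusted p = 1.94e-29 by DESeq2). Leaving out control replicate 1 gave a log2 fold change of 2.35 for alg-4 and leaving out control replicate 2 gave 2.85, and the change stayed past the threshold without any 1 of the 4 libraries, as did that of alg-3. Neither gene passed a test of whether the change exceeded 4-fold (DESeq2 adjusted p = 1 for alg-3 and 0.846 for alg-4). A change above 4-fold was thus not shown for either after adjustment over all rows. The 95% interval of the log2 fold change, which carries no such adjustment, ran from 2.12 to 3.01 for alg-3. For alg-4 it ran from 2.15 to 3.01, and 4-fold is 2 on this scale.

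**Figure D2:**
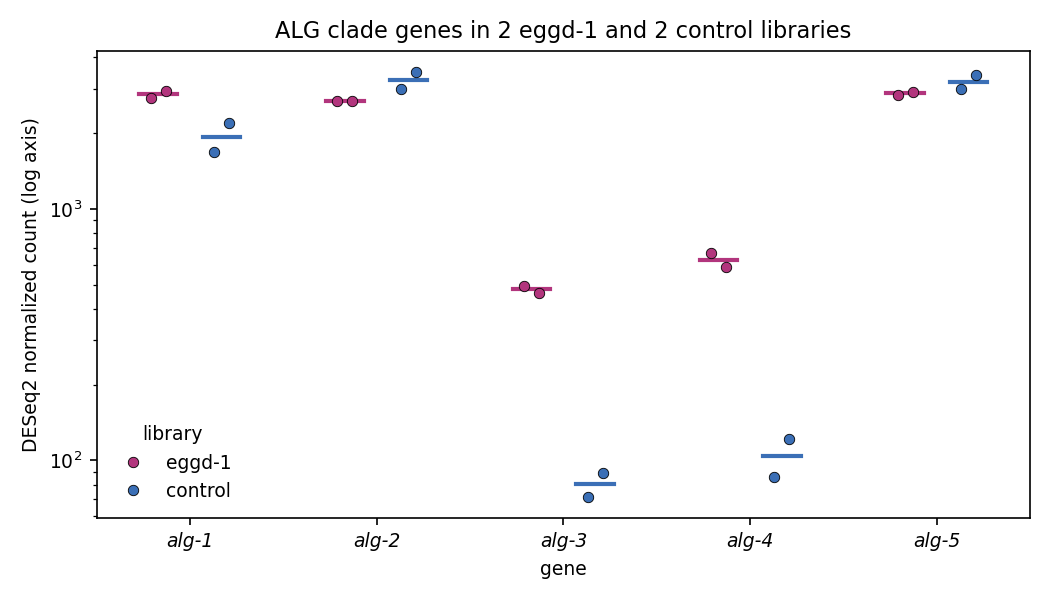
Normalized counts (log axis) of the 5 ALG genes, with each library as a point and the group mean as a bar, eggd-1 in magenta and control in blue. The eggd-1 libraries hold between 464 and 669 normalized counts of alg-3 and alg-4, against 71.9 to 122 in the control libraries, whereas the groups lie much closer for the other 3 genes.

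Among the microRNA Argonautes, alg-1 had 2761 and 2929 normalized counts in eggd-1, against 1679 and 2186 in the control. The groups did not overlap, but the control libraries differed from each other by 1.30-fold, more than the closest eggd-1 and control libraries did (1.26-fold). The mean was 2845 ± 119.3 in eggd-1 and 1933 ± 358 in the control (SD, n = 2), a 1.47-fold difference, or 0.56 on the log2 scale with an SE of 0.15 (adjusted p = 0.00122 by DESeq2). The call was lost without eggd-1 replicate 1 (log2 fold change 0.59, DESeq2 adjusted p = 0.0764) and without eggd-1 replicate 2 (0.52, adjusted p = 0.117). The size rested in part on the control libraries, with a log2 fold change of 0.37 once control replicate 1 was left out and 0.74 once control replicate 2 was.

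The other main microRNA Argonaute gene, alg-2, had 2678 and 2669 normalized counts in eggd-1, against 3000.2 and 3495 in the control. Both eggd-1 libraries lay below both control libraries, which was also so for 38.9% of all rows tested. The mean of alg-2 was 2673 ± 6.30 in eggd-1 and 3247 ± 349.6 in the control (SD, n = 2), and the difference did not pass the test (-0.28 on the log2 scale, SE 0.13, adjusted p = 0.081 by DESeq2). Without control replicate 1 it passed, with a log2 fold change of -0.40 (DESeq2 adjusted p = 0.00576), and over its other alternatives the value came as near to 0 as -0.18.

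The germline microRNA Argonaute gene alg-5 had 2838 and 2909 normalized counts in eggd-1, against 2983 and 3395 in the control. Here too both eggd-1 libraries were the lower ones, but the nearest eggd-1 and control libraries were closer (ratio 0.975) than the control libraries were to each other (1.14-fold). The mean of alg-5 was 2873 ± 50.0 in eggd-1 and 3189 ± 291 in the control (SD, n = 2), a log2 difference of -0.15 with an SE of 0.13 (adjusted p = 0.38 by DESeq2). It was -0.25 once control replicate 1 was left out and -0.07 once control replicate 2 was, and passed in neither case. The 95% interval of this log2 fold change ran from -0.41 to 0.11, which holds both a modest decrease and a small increase.

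The 2 control libraries differed in the same direction for all 5 members. Control replicate 2, the deepest library, was higher than control replicate 1 by between 1.14-fold (alg-5) and 1.42-fold (alg-4) after correction for depth. Over all tested rows whose mean reached 100 normalized counts, replicate 2 was the higher control library in 50.2%. In eggd-1, replicate 2 over replicate 1 ranged between 0.873 (alg-4) and 1.06 (alg-1).

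To compare levels between genes, normalized counts were divided by the length of all annotated exons of each gene. On this scale alg-5 was the most abundant member, with 925 ± 16.1 normalized counts per kb in eggd-1 and 1027 ± 93.7 in the control (SD, n = 2). It was followed by alg-2 (645 ± 1.52 in eggd-1 and 784 ± 84.4 in the control) and by alg-1 (425 ± 17.8 and 289 ± 53.5, in the same order). The spermatogenic paralogues came last in both genotypes, with alg-4 at 181 ± 17.3 in eggd-1 and 30.1 ± 7.38 in the control, and alg-3 at 146 ± 6.77 in eggd-1 and 24.6 ± 3.77 in the control. On this scale the order of the 5 genes was the same in both genotypes. Neighbours in this order did not overlap between libraries, except alg-4 and alg-3 in the control. The level of alg-1 per kb depends on its 4 annotated transcripts, whose joined exon length of 6696 bp exceeds that of every other member. Its place in the order depends on this length too. Without division by length, mean normalized counts in eggd-1 were 2873 for alg-5, 2845 for alg-1 and 2673 for alg-2. In the control they were 3247 for alg-2, 3189 for alg-5 and 1933 for alg-1, so the undivided order differed between genotypes.

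The make-up of the clade differed more between genotypes than its summed level. Per kb of exon, alg-3 and alg-4 together made up 14.9% and 13.3% of the clade in the eggd-1 libraries, against 2.36% and 2.69% in the control libraries. As a share of raw counts these were 12.3% (95% Wilson interval 11.7% to 13.0%) and 10.97% (10.3% to 11.7%) in eggd-1, against 2.02% (1.73% to 2.36%) and 2.28% (2.04% to 2.55%) in the control. The summed level of the 5 genes was 2317 and 2329 normalized counts per kb in eggd-1, against 1983 and 2326 in the control, so that control replicate 2 lay between the eggd-1 libraries and control replicate 1 below them. The share of alg-5 was 39.4% and 40.2% in eggd-1, against 48.5% and 47.0% in the control.

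**Figure D3:**
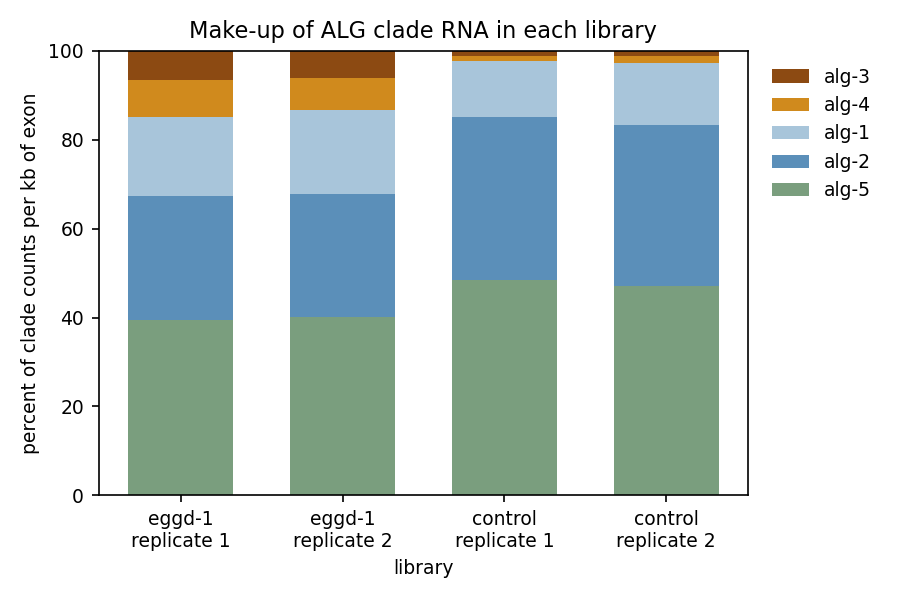
Make-up of ALG clade RNA in each library, as the percent of summed counts per kb of exon that each gene holds. The upper orange and brown segments, alg-4 and alg-3, together take 14.9% and 13.3% in the eggd-1 libraries, against 2.36% and 2.69% in the control libraries.

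Whether the spermatogenic paralogues and the other members changed unequally was asked with ratios within a library, which need no size factor. The ratio of alg-3 plus alg-4 to alg-1 plus alg-2 plus alg-5, per kb of exon, was 0.175 and 0.154 in eggd-1, against 0.0242 and 0.0276 in the control, a 6.34-fold difference. On the log2 scale the difference was 2.66, with an SD between replicates of 0.13 in eggd-1 and 0.14 in the control. An exact two-sided permutation test over the 4 libraries gave p = 0.333, the smallest p that 2 against 2 libraries allow, so this design cannot pass the threshold by that test. From the DESeq2 standard errors, taken as independent, the log2 fold change of alg-3 exceeded that of alg-1 by 2.01 (95% interval 1.47 to 2.54), that of alg-2 by 2.84 (2.33 to 3.36) and that of alg-5 by 2.71 (2.20 to 3.23). For alg-4 these differences were 2.02 (1.50 to 2.55), 2.86 (2.35 to 3.36) and 2.73 (2.23 to 3.23). All 6 intervals lay well above 0.

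The log2 fold changes of alg-4 and alg-3 differed by 0.02, with a 95% interval from -0.60 to 0.63, which leaves room for a difference of up to about that size. Their ratio, alg-4 over alg-3 per kb, was 1.28 and 1.19 in eggd-1, against 1.13 and 1.29 in the control, and the groups overlapped. The ratio of alg-1 to alg-2 was 0.638 and 0.679 in eggd-1, against 0.346 and 0.387 in the control, without overlap. The log2 fold change of alg-1 exceeded that of alg-2 by 0.84 (95% interval 0.44 to 1.23) and that of alg-5 by 0.71 (0.31 to 1.10), whereas alg-2 and alg-5 differed by -0.13 (-0.50 to 0.24).

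The deposited table assigns gene classes from earlier studies, which place the members apart from each other. It puts alg-3 and alg-4 in the Spermatogenic class and alg-3, but not alg-4, also in ALG34, the class of ALG-3/4 targets. It puts alg-2 in the Oogenic and CSR1 classes, alg-5 in the CSR1 and WAGO4 classes and alg-1 in none. Among the 2316 Spermatogenic rows tested, leaving out piRNA genes, the median log2 fold change was 1.07 and 45.3% were higher by DESeq2. In the order of log2 fold changes in that class, alg-4 stood at 176 and alg-3 at 184, above 92.4% and 92.1% of its rows. Both thus changed by more than most genes of the class, and 522 and 534 of all 16773 rows had a larger log2 fold change. In the CSR1 class, whose median was -0.22, alg-2 stood above 45.5% and alg-5 above 56.3% of the rows, near the middle.

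**Figure D4:**
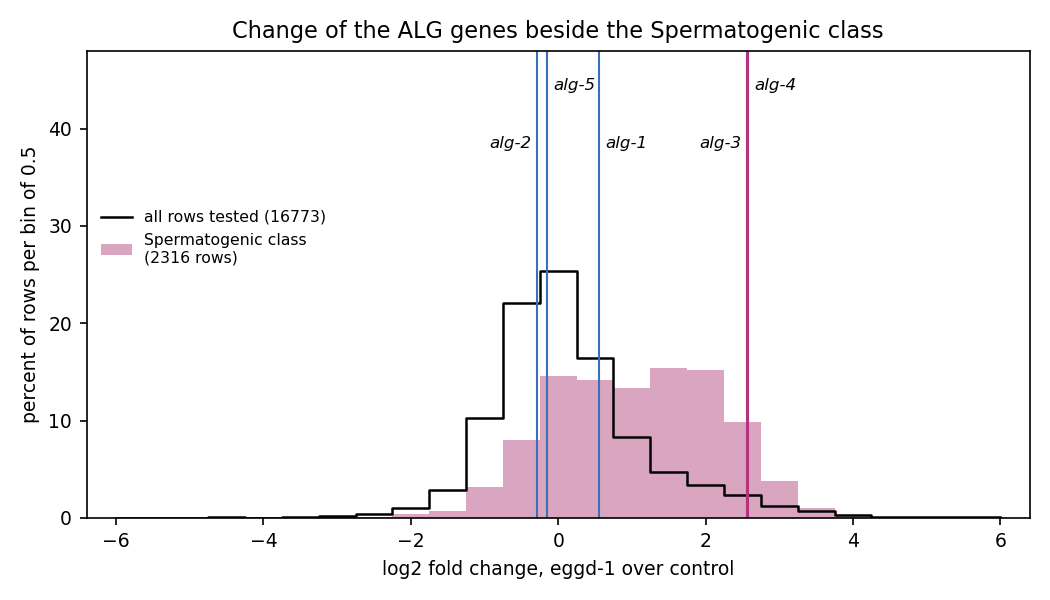
Log2 fold changes (eggd-1 over control) of the 2316 Spermatogenic rows (bars) and of all 16773 rows tested (line), as a percent of rows per bin of 0.5, with rows beyond the axis counted in the end bins. The lines of alg-3 (2.56) and alg-4 (2.58) coincide on the upper flank of the Spermatogenic class, whereas alg-1, alg-2 and alg-5 fall in the bulk of all rows.

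In these whole animals, more sperm-forming cells, more RNA per such cell and such RNA in other cells, oogenic germ cells included, cannot be told apart. Of 27 tested genes in a list of 30 genes of sperm fate, development and function, 17 were higher, against 18.6% of all rows, 1 was lower, against 20.4%, and the median log2 fold change was 1.62, against 0.00 over all rows tested. The summed level of the list was 5656 to 5953 normalized counts in eggd-1, against 3395 to 3899 in the control, and none of its genes was at 0 in all libraries. Genes of the same range of change as alg-3 and alg-4 included the sperm factor spe-11 (2.58), the membrane fusion gene fer-1 (2.34) and the sperm phosphatase gene gsp-3 (2.31), all higher by DESeq2. Some of the 17 higher calls were lost with each library left out in turn. Without eggd-1 replicate 1, spe-9 (log2 fold change 2.14) and spe-10 (2.20) received no adjusted p-value, so their calls were lost as well. The list did not move as one, since the sperm fate gene fog-1 (0.09) and the sperm transcription factor gene spe-44 (-0.34) did not pass, and elt-1, a GATA factor, fell by 0.80, a call lost without eggd-1 replicate 2 (DESeq2 adjusted p = 0.0855). The list was written knowing that sperm genes had been reported as raised in these libraries, so it is no independent evidence of direction.

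Markers of other cells were read beside the shares over all rows, 18.6% higher and 20.4% lower. All 4 body wall muscle genes were higher, with a median log2 fold change of 0.96, and so were both pharynx genes, with a median of 1.79. The summed muscle level was 238702 and 240847 normalized counts in eggd-1, against 115056 and 143720 in the control. Of the 13 oocyte genes 4 were higher and none lower (0 also at an unadjusted p-value under 0.05 and by edgeR), with summed levels of 205836 and 225512 in eggd-1 that exceeded the 155787 and 203224 of the control. Without eggd-1 replicate 2 all 4 higher oocyte calls were lost, without eggd-1 replicate 1 3 of them and without control replicate 1 2. Among the 6 genes of the germ line of both sexes, 2 were higher and 1 lower. Of the other somatic lists, intestine had 2 higher and 1 lower of 4 and neuron 2 higher and 1 lower of 5. Hypodermis had 1 higher of 4 by DESeq2 and 3 by edgeR. These counts are too small to set apart from the shares over all rows. The germ line and neuron lists each lost at least 1 call in either direction when an eggd-1 library was left out. None of the 4 tested of 9 male soma genes was called in either direction by DESeq2 (1 was higher at an unadjusted p-value under 0.05 and 1 by edgeR), with summed levels of 78.4 and 64.8 in eggd-1, against 72.9 and 60.03 in the control. The part of these cell types in the changes of the ALG genes was not tested.

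The genes that flank the members were read by position. The nearest protein-coding gene to alg-3 is T22B3.3 (WBGene00011911, chromosome IV, 11703228 to 11703785), which lies 460 bp upstream on the opposite strand and is also in the Spermatogenic class. It had 52 and 25 counts in eggd-1, against 3 and 10 in the control, and was higher by 3.06 on the log2 scale (SE 0.72, DESeq2 adjusted p = 0.000127). On the other side of alg-3, 6774 bp away, magi-1 did not pass (0.07, SE 0.15). Next to alg-4, both neighbours had at most 7 counts in any library and received no adjusted p-value. The neighbour of alg-2, fbxc-51, 1512 bp upstream on the same strand, fell by 1.07 on the log2 scale (SE 0.17). The histone gene his-68, 286 bp upstream of alg-5, fell by 1.43 (SE 0.17). On the other side, 20570 bp away, C03C11.1 of the Spermatogenic class rose by 1.58 (SE 0.48). Both share reads with other loci. The other neighbour of alg-2, T07D3.4 (-0.74), and those of alg-1, elt-3 (0.42, also of the Spermatogenic class) and syx-2 (0.22), did not pass. Overlapping genes on the same strand as a member had at most 5 counts in a library. The neuronal gene cfi-1 overlaps the end of alg-5 on the opposite strand, and counting by strand keeps its 131 and 134 counts in eggd-1, against 74 and 100.5 in the control, apart.

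The genes whose values over the 4 libraries were most like those of alg-3 and alg-4 were sought where the mean over libraries reached 100 normalized counts. Likeness was the Euclidean distance of log2(normalized count + 0.5), centred on the mean of each gene, to 9503 other genes. The 5 nearest to alg-3 were B0205.10 (distance 0.0428), F49C12.15, snf-5, ZK938.1 and E03H12.5 (0.105), with log2 fold changes from 2.51 to 2.61. The 5 nearest to alg-4 were C10G11.8 (0.0328), spch-3, F49C12.15, T10E9.4 and ZK84.1 (0.124), with log2 fold changes from 2.49 to 2.67. All of these are in the Spermatogenic class of the table except ZK84.1, which has no class, and F49C12.15 was common to both sets. Of all 397 tested rows with a log2 fold change between 2.25 and 2.75, at any level, 227 were in that class. Membership is therefore common at this size of change. Counted from alg-3, alg-4 itself was the gene at rank 11, at a distance of 0.156, and counted from alg-4, alg-3 was at rank 10. Distances over 4 libraries in 2 groups are a description only. ZK938.1 and spch-3 share reads with other loci.

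Of 9 factors that make 26G-RNAs, the small RNAs held by ALG-3 and ALG-4, DESeq2 called 0 higher (1 at an unadjusted p-value under 0.05, and 0 by edgeR) and 3 lower, against 18.6% and 20.4% of all rows, with a median log2 fold change of -0.13. A count of 3 in 9 is near that share. With size factors set without the Spermatogenic class, 2 of them were called higher. The largest decrease was in gtsf-1, which encodes a zinc finger cofactor of the RNA-dependent RNA polymerase RRF-3. It had 257 and 239 normalized counts in eggd-1, against 547 and 459.5 in the control (-1.02 on the log2 scale, SE 0.20, adjusted p = 2.72e-06 by DESeq2). The RNA phosphatase gene pir-1 had 829.6 and 799.9 in eggd-1, against 1573 and 1193 in the control (-0.76, SE 0.17, adjusted p = 3.91e-05). The polymerase gene rrf-3 had 3009 and 3387 in eggd-1, against 5003 and 3902 in the control (-0.48, SE 0.15, DESeq2 adjusted p = 0.00532). The groups did not overlap for these 3 genes. The call for rrf-3 was lost without control replicate 1 (-0.30, adjusted p = 0.0574), without eggd-1 replicate 1 (-0.40, 0.239) and without eggd-1 replicate 2 (-0.56, 0.071). The other factors did not pass, with log2 fold changes of 0.25 for the helicase gene drh-3, 0.21 for the Dicer gene dcr-1, 0.21 for the double-stranded RNA binding protein gene rde-4, -0.07 for eri-3, -0.13 for the exonuclease gene eri-1 and -0.32 for eri-5.

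Of 12 microRNA factor genes, which act with alg-1 and alg-2, 1 was higher and 1 lower, against 18.6% and 20.4% of all rows, with a median log2 fold change of -0.11. The count was 2 higher with size factors set without the Spermatogenic class and 3 lower without control replicate 2. The Drosha gene drsh-1, which encodes the nuclease that first cuts microRNA precursors, had 2451 and 2375 normalized counts in eggd-1, against 1815 and 1918 in the control (0.37, SE 0.13, DESeq2 adjusted p = 0.014). That call was lost without either eggd-1 library (adjusted p = 0.301 without replicate 1 and 0.201 without replicate 2). The silencing complex gene vig-1 had 31749 and 35478 in eggd-1, against 57904 and 46919 in the control (-0.64, SE 0.14, DESeq2 adjusted p = 2.31e-05), and missed the threshold without eggd-1 replicate 1 (-0.57, adjusted p = 0.0525). The GW182-type scaffold genes of the microRNA silencing complex, ain-1 (0.01) and ain-2 (-0.27), did not pass, nor did pash-1 (-0.14), the partner of Drosha. The effector and decay genes nhl-2, gyf-1, tsn-1, xrn-1, xrn-2 and ebax-1 lay between -0.25 and 0.12 and did not pass.

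**Figure D5:**
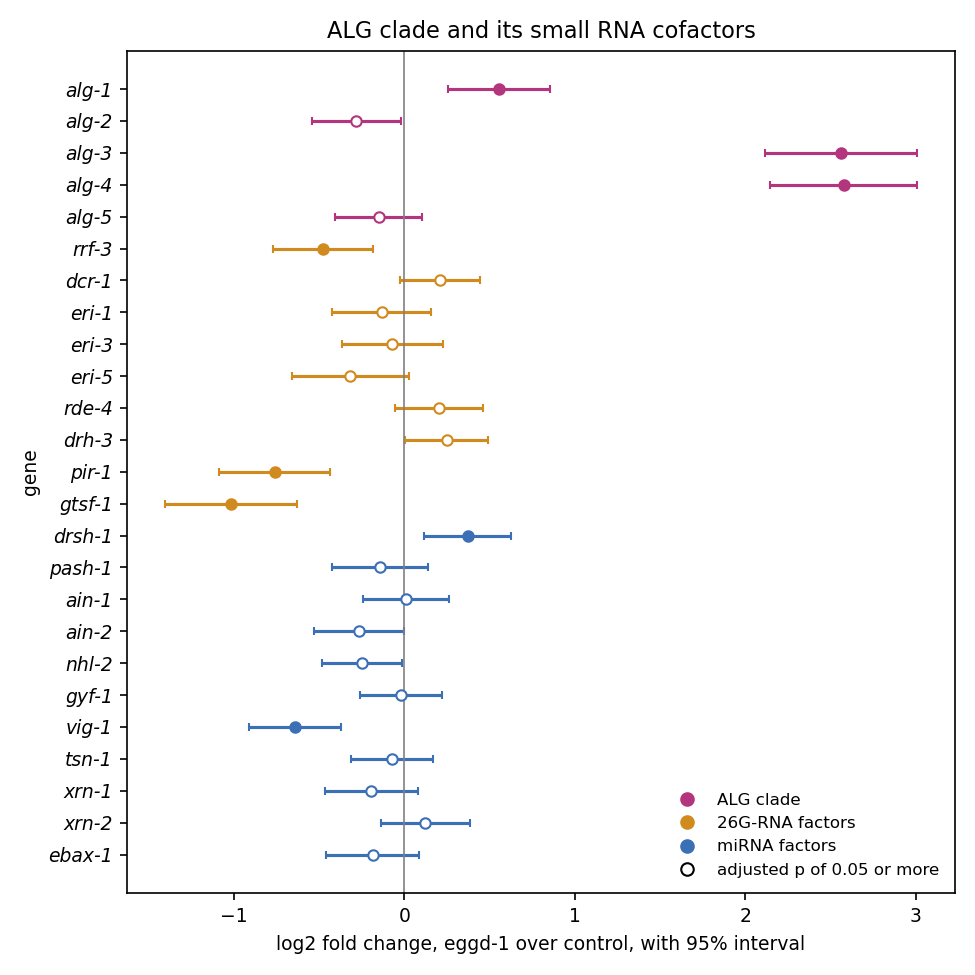
Log2 fold changes (eggd-1 over control) with 95% intervals for the ALG genes (magenta), the 26G-RNA factors (orange) and the microRNA factors (blue), with filled points at an adjusted p-value under 0.05. The points of alg-3 and alg-4, at 2.56 and 2.58, lie apart from all others shown, which range between -1.02 and 0.56, and dcr-1 belongs to both factor lists.

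Of 17 tested Argonaute genes in a list of 18 outside the clade, 10 were higher and 1 lower, against 18.6% and 20.4% of all rows, with a median log2 fold change of 0.35. Of the 10 higher calls, 7 were lost without eggd-1 replicate 2, 3 without eggd-1 replicate 1, 2 without control replicate 1 and 1 with control replicate 2 left out. The lower one, vsra-1 (-0.36, named after its value was seen), was lost with the replicate block, with size factors set without the Spermatogenic class, and without control replicate 2 or either eggd-1 library. The only one at 4-fold or more was wago-10, named after its value was seen. It had 131 and 124 normalized counts in eggd-1, against 27.3 and 28.6 in the control (2.19 on the log2 scale, SE 0.37, adjusted p = 4.03e-08 by DESeq2). The log2 fold change of alg-3 minus that of wago-10 was 0.38 (95% interval -0.47 to 1.22) and that of alg-4 minus wago-10 was 0.39 (-0.45 to 1.23), so neither differed from it beyond the error.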

How the data were processed

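RNA of 2 eggd-1 and 2 control libraries was measured. The authors deposited expected counts: reads were trimmed with Trim Galore, aligned with STAR to WormBase WS279 and counted per gene by strand with featureCounts, and a read with several alignments was split into fractions. Rows for 181 transposons came from Salmon. The series table holds 7 further columns that match no sample label, which were not used. Its authors' gene classes were used.

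Expected counts were rounded, and 25765 rows with at least 1 count entered a DESeq2 (version 1.42.0) Wald test of eggd-1 against control, with Benjamini-Hochberg adjustment, a threshold of 0.05 and no covariate, in R 4.3.3. Of these, 16773 received an adjusted p-value. Alternatives were edgeR 4.0.16 (quasi-likelihood test), limma 3.58.1 (voom), other size factors, a filter on low counts, a test against 4-fold, a replicate block and leaving out each library. DESeq2, edgeR and voom were also run on counts simulated from the means and spreads of the DESeq2 fit. Such counts follow that model, so they do not test how well it describes these data. Ratios within a library were compared by an exact permutation test with Python 3.11.15. Exon lengths and positions came from Ensembl release 115 and were found for 99.98% of gene rows. No sequence was used here.

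The genes named are the 5 members, the 26G-RNA and microRNA factor lists, and the 5 genes nearest to alg-3 and to alg-4 whose mean reached 100 normalized counts. Flanking genes, single genes of the sperm list, rol-6, vsra-1 and wago-10 were named after their values were seen. The members and lists, written from general knowledge, were chosen with earlier results of these data known.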

Additional observations from a re-analysis of the deposited data

How the results depend on the processing

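The log2 fold change lay between 2.41 and 2.72 for alg-3 and between 2.35 and 2.85 for alg-4 over 11 alternatives, and both passed under each except the test against 4-fold. That test kept the fold changes (2.56 for alg-3, 2.58 for alg-4 and 0.56 for alg-1, none of which passed) and left 88 rows higher and 5 lower in eggd-1. Leaving out each library gave 0.37 to 0.74 for alg-1 and -0.40 to -0.18 for alg-2, and 1174 to 2502 rows higher and 1497 to 2893 lower, against 3127 and 3426 with all libraries. An arm left with 1 library was assumed to vary like the other. Under edgeR 4583 rows were higher and 4310 lower. The directions of alg-2 and alg-5 held under all 11 alternatives, and alg-5 never passed. With size factors set without the Spermatogenic class, 2 of the 26G-RNA factors were higher. The ratio of the spermatogenic to the other members differed by 2.57 to 2.76 on the log2 scale with each library left out. Same-numbered libraries did not deviate together (correlation -0.0536), so the numbers were not taken as pairs. With the replicate block, the log2 fold change was 2.57 for alg-3, 2.60 for alg-4, 0.57 for alg-1, -0.28 for alg-2 and -0.15 for alg-5, with no change in these calls. The block removed the call of drsh-1 (DESeq2 adjusted p = 0.055) and the lower call of vsra-1. It also removed 1 of the 17 higher sperm calls, 1 of the 10 of other Argonautes and 1 of the 2 of the neuron list. The cause of these differences was not tested. With 2 libraries a group, an exact test cannot pass the threshold.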
